A study of Homo sapiens with 12 samples.

Results

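The 35 genes described here encode the chaperones, folding enzymes, degradation factors and stress sensors of the endoplasmic reticulum (ER), the compartment in which secreted and membrane proteins fold. They were chosen by symbol for these known roles and matched by Ensembl gene ID to rows of the deposited tables, where all 35 were found among 60483 gene rows. All 35 passed the filter on low counts and were tested together with the other genes, 14822 in all. When unfolded proteins build up in the ER, the sensors ATF6, IRE1 (gene ERN1) and PERK (gene EIF2AK3) switch on the unfolded protein response. ATF6 is cut and its released part acts as a transcription factor, IRE1 splices XBP1 mRNA into a form that encodes an active factor, and PERK slows translation and raises ATF4. In secretory tissues such as the mammary gland the same genes set the folding capacity of the ER.

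The cells were MCF10A, a non-tumorigenic human mammary epithelial line, and every library came from cells transduced with doxycycline (Dox) inducible TAZ-4SA. TAZ, encoded by WWTR1, is a co-activator of the Hippo pathway, and TAZ-4SA is its constitutively active form. RNA was taken without Dox (No Dox) or after 24, 48 or 72 h in 0.05 µg/ml Dox, with 3 libraries in each of the 4 groups and a total of 15382564 to 26570132 expected counts per library. The sources used here do not say whether the 3 libraries of a group came from separate cultures. A p-value here therefore reflects the scatter among libraries, which may be technical. No cells given Dox without the transgene were analysed here, so Dox and TAZ-4SA cannot be told apart. The libraries hold no separate No Dox group for each time in Dox, so hours in Dox and time in culture cannot be told apart either.

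WWTR1, counted together with its transgene, rose from 71.7 ± 2.88 CPM (expected counts scaled to a common library size, mean ± SD, n = 3) without Dox to 887 ± 68.1, 844 ± 73.6 and 994 ± 59.3 CPM at 24, 48 and 72 h. In TPM (a level scaled by both gene length and library size) it went from 26.6 ± 2.88 to 1002 ± 145, 994 ± 152 and 1126 ± 127. All 8 markers of basal mammary epithelium reached 1 TPM, and their summed level was 5270 to 5625 TPM without Dox and 2798 to 3056 TPM in the Dox libraries. Of the markers of other cell types, the fibroblast genes COL1A2, COL3A1, PDGFRA and THY1, the endothelial gene VWF, the leukocyte genes PTPRC and CD3E and the adipocyte genes ADIPOQ and FABP4 stayed below 0.1 TPM in every library. Other markers of these lists did reach 1 TPM: COL1A1, DCN and LUM of fibroblasts, PECAM1 and KDR of endothelium and CD14 of leukocytes. The endothelial sum was 8.05 to 9.75 TPM without Dox and 0.05 to 2.92 TPM in Dox, and the leukocyte sum was 16.4 to 24.3 TPM without Dox and 1.61 to 3.91 TPM in Dox. The summed level of the 8 fibroblast markers was 35.1 to 36.4 TPM without Dox and 1.17 to 13.9 TPM in Dox, and that of the 3 luminal markers was 6.22 to 7.97 TPM without Dox and 9.05 to 25.3 TPM in Dox. The part of these marker changes in the results below was not tested.

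Most ER folding genes were higher in all Dox groups than without Dox, by amounts that were modest for the majority and 2-fold or more for a minority. In the text, a gene rose or fell where the edgeR quasi-likelihood test, adjusted over all 14822 genes, gave an adjusted p under 0.05, and it was called where the change was also at least 2-fold. At 24 h, 8 of the 35 genes (22.9%) were called higher and 1 (2.86%) was called lower, against 12% and 17.7% of all genes tested. Without the fold threshold, 25 rose (71.4%) and 6 fell (17.1%), against 37.1% and 38.1% of all genes. At 48 h, 7 were called higher, against 10.6% of all genes, and 28 rose and 3 fell, against 36% and 35.8%. At 72 h, 6 were called higher, against 10.2% of all genes, and 27 rose and 2 fell, against 34.3% and 34.8%. The background of genes called lower was 14.4% at 48 h and 12.3% at 72 h, and none of the 35 genes was called lower at these times by edgeR or by DESeq2, or at an unadjusted edgeR p under 0.05 with a 2-fold change. Without the 2-fold limit, 3 and 2 were lower at an unadjusted p under 0.05.

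The median log2 fold change of the 35 genes was 0.51, 0.48 and 0.49 at 24, 48 and 72 h, and that of all genes tested was -0.0281, -0.0133 and -0.0189. In these bulk libraries, a change in RNA per cell and a change in the share of cells that express a gene cannot be told apart. HSPA5, SDF2L1 and MANF were called at all 3 times, and 23 genes rose at all 3 times. The share of all genes tested that did so was not counted. The 3 comparisons share the No Dox libraries. Over the time course as a whole 11 of the 35 genes (31.4%) were called at some time, which is near the 35.9% of all genes. The 35 genes together held 0.301 ± 0.0039% of all TPM without Dox, 0.527 ± 0.00651% at 24 h, 0.481 ± 0.0029% at 48 h and 0.488 ± 0.0144% at 72 h (n = 3 each).

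**Figure D1:**
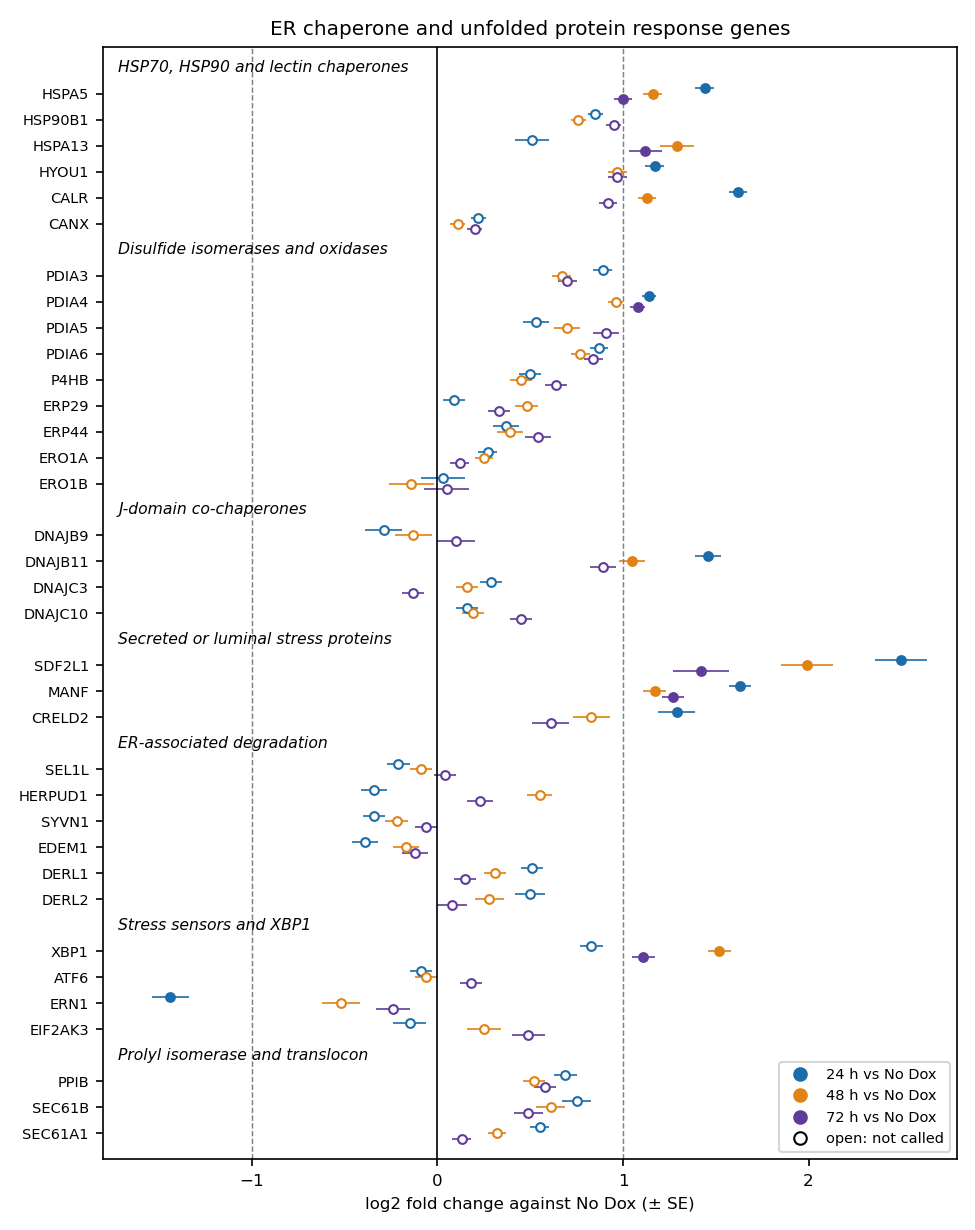
The log2 fold change of each of the 35 genes against No Dox (horizontal axis, ± SE) at 24, 48 and 72 h, ordered by role, with filled points for called genes and dashed lines at 2-fold. SDF2L1 lies furthest to the right at 24 h, at 2.50, followed by MANF at 1.63 and CALR at 1.62, whereas ERN1 lies at -1.44 and the degradation genes scatter around 0.

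The promoters of genes of this response often carry the ER stress response element (ERSE), a CCAAT box and the letters CCACG separated by 9 bases of any kind, or its shorter form ERSE-II. Windows from 250 bases before to 50 bases after the RefSeq start (GRCh38.p14) were searched on both strands, and 33 of the 35 genes had a window, PDIA3 and DERL1 being the exceptions. The ERSE, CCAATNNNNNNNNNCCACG, was present in 8 of the 33 genes (24.2%), in 0.0769% of 35116 RefSeq windows and in 0.148% of 10811 tested genes with a window. ERSE-II, ATTGGNCCACG, was present in 3 of the 33 genes (9.09%), in 0.0541% of windows and in 0.129% of tested genes. The genes were chosen as known genes of this response, so these shares describe the choice of genes as well as the promoters. The elements found are given 5′ to 3′ on the strand that matches the element, with its fixed letters in capitals, and with the position of the first base in the window relative to the start.
HSPA5, -66: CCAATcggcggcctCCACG
HSP90B1, -194: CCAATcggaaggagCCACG
HSP90B1, -89: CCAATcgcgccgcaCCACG
CALR, -225: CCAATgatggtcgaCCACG
CANX, -189, -151 and -9 in 3 overlapping windows of its 4: CCAATcttcacactCCACG
PDIA6, -86: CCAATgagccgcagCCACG
ERO1B, -243: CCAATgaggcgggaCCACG
CRELD2, -80: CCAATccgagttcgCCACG
XBP1, -52: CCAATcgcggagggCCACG
HYOU1, -185 and -79: ATTGGaCCACG
SDF2L1, -188: ATTGGtCCACG
HERPUD1, -117: ATTGGgCCACG

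The whole windows of the main ER HSP70 chaperone, of the gene with 2 copies of ERSE-II and of the gene with the highest fold change of the 35 are given 5′ to 3′ on the strand of the gene, with the fixed letters of the elements in capitals. The HSPA5 window is chr9:125241294-125241593 on the minus strand, that of HYOU1 is chr11:119057156-119057455 on the minus strand and that of SDF2L1 is chr22:21642052-21642351 on the plus strand. In HYOU1 and SDF2L1 the element lies on the opposite strand and so appears as its reverse complement.
HSPA5: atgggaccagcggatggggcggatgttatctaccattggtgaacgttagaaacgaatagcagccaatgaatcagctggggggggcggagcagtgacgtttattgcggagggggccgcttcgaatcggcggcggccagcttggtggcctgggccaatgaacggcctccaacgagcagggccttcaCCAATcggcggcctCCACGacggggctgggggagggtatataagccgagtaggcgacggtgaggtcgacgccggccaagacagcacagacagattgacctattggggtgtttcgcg
HYOU1: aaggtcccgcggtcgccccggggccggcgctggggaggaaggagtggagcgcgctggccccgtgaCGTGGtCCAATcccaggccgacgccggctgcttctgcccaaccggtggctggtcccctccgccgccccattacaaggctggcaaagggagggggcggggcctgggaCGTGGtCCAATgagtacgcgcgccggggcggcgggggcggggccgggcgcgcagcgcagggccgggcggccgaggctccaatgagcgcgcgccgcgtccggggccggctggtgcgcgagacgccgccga
SDF2L1: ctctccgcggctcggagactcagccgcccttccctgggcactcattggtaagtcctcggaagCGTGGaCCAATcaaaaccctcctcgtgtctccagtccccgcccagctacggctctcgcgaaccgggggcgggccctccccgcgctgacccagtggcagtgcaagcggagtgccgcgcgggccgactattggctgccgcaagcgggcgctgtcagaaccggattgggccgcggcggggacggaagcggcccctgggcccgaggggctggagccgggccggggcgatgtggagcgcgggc

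Beside the counts below, 12%, 10.6% and 10.2% of all genes tested were called higher at 24, 48 and 72 h, and 17.7%, 14.4% and 12.3% lower. The 11 genes with an ERSE or ERSE-II had median log2 fold changes of 0.87, 0.83 and 0.92 at 24, 48 and 72 h, and 5, 4 and 3 of them were called higher. The 22 genes with a window and neither element had medians of 0.33, 0.30 and 0.39, with 3 called higher at each time and 1 called lower at 24 h. Both groups spanned a wide range at 24 h, from -0.34 (HERPUD1) to 2.50 (SDF2L1) with an element and from -1.44 (ERN1) to 1.63 (MANF) without. Another 19 tested genes held an element, and their medians were 0.28, 0.19 and 0.27. Of these 19, 1, 2 and 1 were called higher at 24, 48 and 72 h, and 1, 2 and 1 were called lower. SHCBP1 was the gene called higher at 24 h, from 18.4 ± 1.51 to 118 ± 9.71 CPM, and NAV2 was the gene called lower, from 255 ± 4.39 to 117 ± 9.94 CPM. Both were named after their values were seen. The difference between genes with and without an element was not tested.

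**Figure D2:**
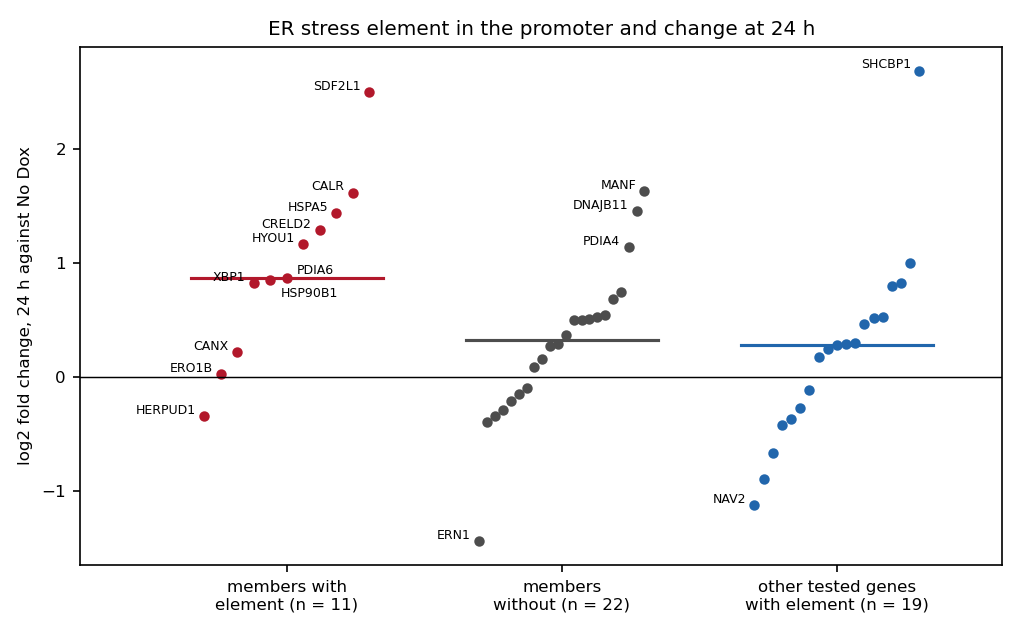
The log2 fold change at 24 h against No Dox (vertical axis) of the 11 genes of the set with an ERSE or ERSE-II in the promoter window, the 22 without and 19 other tested genes with an element, each point a gene and each bar a group median. The medians are 0.87, 0.33 and 0.28, and the ranges of the groups overlap.

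Each of the other short motifs searched was present in 3 or fewer of the 33 genes with a window. The core of the unfolded protein response element, TGACGTG, was present in HYOU1, DNAJC10 and SEC61A1 (9.09%), in 1.97% of all windows and in 3.26% of tested genes. GGAATG, the motif of the TEAD factors through which TAZ binds DNA, was present in ERN1 alone of the 33 (3.03%), beside 14% of all windows and 14.9% of tested genes. The AP-1 motif TGANTCA was present in HSPA5 and SEC61B (6.06%), beside 7.71% of windows and 7.16% of tested genes. In HYOU1, the TGACGTG match overlaps the ERSE-II at -185. These are matches of letters in 300 bases and say nothing of binding.

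The HSP70, HSP90 and lectin chaperones all rose, by unequal amounts, with 6 of 6 genes higher at each time and 3, 3 and 2 of them called at 24, 48 and 72 h. Of all genes tested, 37.1%, 36% and 34.3% rose and 12%, 10.6% and 10.2% were called higher at these times. These shares also stand beside the counts of the other roles below. HSPA5 (ENSG00000044574.7, GRCh38 chromosome 9, 125234853 to 125241382) encodes BiP, the HSP70 of the ER lumen, which holds unfolded chains and keeps the stress sensors inactive. It measured 332, 296 and 332 CPM without Dox, 923, 816 and 874 at 24 h, 751, 690 and 701 at 48 h and 635, 634 and 653 at 72 h. Every Dox library lay above every No Dox library, and the groups fell into the order 24 h, 48 h, 72 h without overlap. The log2 fold changes were 1.44 ± 0.05 (SE, edgeR adjusted p = 1.07e-15), 1.16 ± 0.05 (adjusted p = 4.95e-14) and 1.0 ± 0.05 (adjusted p = 6.87e-13). The 72 h value lies on the 2-fold threshold: the call was lost without No Dox replicate 2, at 0.96, and without Dox 72 h replicate 3, at just under 1.0, and the value ran from 0.96 to 1.07 over the alternatives.

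CALR (ENSG00000179218.12), whose product calreticulin binds glycoproteins and calcium in the ER, measured 287, 280 and 286 CPM without Dox and 912, 826 and 890 at 24 h. Its level was 649, 609 and 613 CPM at 48 h and 505, 550 and 563 at 72 h. The No Dox libraries were the lowest and the 24 h libraries the highest, with no overlap between any of the 4 groups. CALR had log2 fold changes of 1.62 ± 0.05 (edgeR adjusted p = 4.37e-17), 1.13 ± 0.05 (adjusted p = 2.11e-14) and 0.92 ± 0.05 (adjusted p = 7.92e-13). Calnexin (CANX), the membrane-bound lectin that works beside calreticulin, also has an ERSE and had log2 fold changes of 0.22, 0.11 and 0.20.

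HYOU1 (ENSG00000149428.17), a large HSP70 that acts as the nucleotide exchange factor of BiP and has 2 copies of ERSE-II, measured 127, 115 and 127 CPM without Dox, 285, 263 and 284 at 24 h, 246, 231 and 248 at 48 h and 244, 235 and 243 at 72 h. It was above 2-fold at 24 h, at 1.17 ± 0.05 (edgeR adjusted p = 1.7e-14), and just below it at 48 h and 72 h, at 0.97 ± 0.05 for each. The 24 h libraries did not overlap those of 48 and 72 h, which overlapped one another. HSPA13 (ENSG00000155304.5), an HSP70 of the microsomes, took another course. It measured 28.5, 27.9 and 30.3 CPM without Dox, 35.9, 47.6 and 40.3 at 24 h, 63.4, 75.9 and 73.3 at 48 h and 67.8, 60.4 and 60.1 at 72 h. HSPA13 was called at 48 h (log2 fold change 1.29 ± 0.09, edgeR adjusted p = 3.27e-11) and 72 h (1.12 ± 0.09, adjusted p = 4.4e-10) but was at 0.51 ± 0.09 at 24 h. HSP90B1, which encodes GRP94, the HSP90 of the ER, stayed just below 2-fold at each time, at 0.85, 0.76 and 0.95 ± 0.04. In a fit that took RSEM's effective gene length into account, HSP90B1 was at 0.60, 0.53 and 0.63.

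The protein disulfide isomerases and oxidases, which form and rearrange disulfide bonds in folding proteins, rose in 7, 8 and 8 of 9 genes at 24, 48 and 72 h, with a single gene, PDIA4, called. PDIA4 (ENSG00000155660.9) measured 137, 132 and 133 CPM without Dox, 291, 298 and 297 at 24 h, 266, 255 and 261 at 48 h and 279, 289 and 282 at 72 h. Its Dox levels lay in a narrow band well above the No Dox libraries. For PDIA4 the log2 fold changes were 1.14 ± 0.04 (edgeR adjusted p = 1.13e-15), 0.96 ± 0.04 (adjusted p = 2.34e-14) and 1.08 ± 0.04 (adjusted p = 3.7e-15). PDIA3, the isomerase that acts on glycoproteins held by calnexin and calreticulin, and PDIA6 rose by 0.89 and 0.87 at 24 h, and P4HB, the classical isomerase, by 0.50. PDIA5 was at 0.53, 0.70 and 0.91, and rose again between 48 h and 72 h. ERP44, which retrieves unfinished oligomers from the Golgi, rose by 0.37 to 0.54, and ERP29 was at 0.09 at 24 h (edgeR adjusted p = 0.157) and rose by 0.48 and 0.33 at the later times. With effective lengths in the edgeR fit, ERP29 was at 0.33 at 48 h and 0.15 at 72 h, where its rise was lost (adjusted p = 0.0681). The oxidase ERO1A rose by 0.27, 0.25 and 0.12, and its paralog ERO1B, at 3.53 ± 0.577 TPM the lowest level per length of the 35 genes without Dox, was at 0.03, -0.14 and 0.05 with adjusted p of 0.294 or more.

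The J-domain proteins, which pass unfolded chains to BiP, did not move together. DNAJB11 (ENSG00000090520.9) measured 51.1, 43.1 and 47.0 CPM without Dox, 139, 125 and 126 at 24 h, 104, 97.0 and 93.3 at 48 h and 80.5, 91.4 and 91.2 at 72 h. Its No Dox libraries were the lowest and its 24 h libraries the highest, and the Dox groups did not overlap one another. DNAJB11 was 2.75-fold higher at 24 h (edgeR adjusted p = 4.88e-14) and 2.08-fold higher at 48 h (adjusted p = 1.64e-11), with a log2 fold change of 0.89 ± 0.07 at 72 h (adjusted p = 3.03e-10). With effective lengths in the fit the 48 h log2 value was 0.74, below the 2-fold threshold. DNAJC10, a reductase that helps degradation, rose by 0.16, 0.19 and 0.45. DNAJC3, also known as an inhibitor of the kinase PERK, rose by 0.29 at 24 h and 0.16 at 48 h and fell by 0.13 on the log2 scale at 72 h (edgeR adjusted p = 0.0483). DNAJB9, a repressor of IRE1, fell by 0.29 on the log2 scale at 24 h (edgeR adjusted p = 0.0147) and was at -0.13 and 0.10 at the later times.

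The secreted or luminal stress proteins gave the largest changes by role at 24 h, with all 3 called higher and a median of 1.63. SDF2L1 (ENSG00000128228.4, chromosome 22, 21642302 to 21644299), a luminal partner of the J-domain proteins, measured 6.5, 7.64 and 6.75 CPM without Dox and 42.7, 32.7 and 41.8 at 24 h. It then measured 31.5, 27.0 and 23.5 CPM at 48 h and 21.3, 14.9 and 19.0 at 72 h. No groups overlapped, and the order from high to low was 24 h, 48 h, 72 h, No Dox. SDF2L1 had log2 fold changes of 2.50 ± 0.14 (edgeR adjusted p = 6.09e-13), 1.99 ± 0.14 (adjusted p = 5.05e-11) and 1.42 ± 0.15 (adjusted p = 2.12e-08). Its level relative to gene length rose from 13.9 ± 1.13 TPM, the 26th of the 35, to 80.5 ± 9.94 TPM at 24 h, the 16th.

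MANF (ENSG00000145050.14), a secreted factor that also binds BiP, measured 38.0, 37.6 and 36.0 CPM without Dox, 122, 106 and 117 at 24 h, 87.9, 79.1 and 83.6 at 48 h and 87.2, 86.5 and 94.1 at 72 h. The 24 h libraries were the highest, the 48 h and 72 h libraries overlapped one another, and the No Dox libraries lay far below. MANF was at log2 fold changes of 1.63 ± 0.06 (edgeR adjusted p = 2.05e-15), 1.17 ± 0.06 (adjusted p = 7.85e-13) and 1.27 ± 0.06 (adjusted p = 2.16e-13). CRELD2 (ENSG00000184164.13), a secreted ER stress protein, measured 16.1, 15.1 and 16.2 CPM without Dox, 40.0, 34.7 and 41.5 at 24 h, 30.8, 23.2 and 30.6 at 48 h and 25.8, 23.7 and 23.0 at 72 h. It was called at 24 h, at 1.29 ± 0.10 (edgeR adjusted p = 1.73e-10), and rose by 0.83 ± 0.10 and 0.61 ± 0.10 at the later times, when its libraries overlapped.

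The genes of ER-associated degradation, the pathway that draws misfolded proteins out of the ER for the proteasome, split in direction, and all 6 stayed within 2-fold at each time. At 24 h, the membrane proteins DERL1 and DERL2 rose by 0.51 and 0.50, whereas SEL1L, HERPUD1, SYVN1 and EDEM1 fell by 0.21, 0.34, 0.34 and 0.39 on the log2 scale. SYVN1 is the ubiquitin ligase of the pathway, SEL1L its partner, HERPUD1 an assembly factor and EDEM1 a lectin that hands over glycoproteins. HERPUD1, which has an ERSE-II, measured 37.2, 39.0 and 42.4 CPM without Dox, 32.4, 31.3 and 30.1 at 24 h, 54.4, 59.1 and 59.6 at 48 h and 50.7, 43.2 and 44.9 at 72 h. It was thus the lowest at 24 h and the highest at 48 h, with no overlap between groups, and its log2 fold change was 0.55 at 48 h (edgeR adjusted p = 5.08e-07) and 0.23 at 72 h (adjusted p = 0.00664). By 72 h only HERPUD1 and DERL1 were still higher and none of the 6 was lower, with EDEM1 at -0.12 (edgeR adjusted p = 0.106), SYVN1 at -0.06 and SEL1L at 0.04. With effective lengths in the fit, EDEM1 was at -0.71 and DERL2 at 0.81 at 24 h.

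Of the stress sensors and XBP1, ERN1 and XBP1 moved more than 2-fold against No Dox, in opposite directions and at different times. ERN1 was lower by more than 2-fold at 24 h alone, and XBP1 was higher by more than 2-fold at 48 h and 72 h. ERN1 (ENSG00000178607.14, chromosome 17, 64039080 to 64130819) measured 33.2, 32.0 and 31.1 CPM without Dox, 9.5, 13.3 and 12.8 at 24 h, 20.6, 21.7 and 25.0 at 48 h and 27.7, 28.5 and 25.4 at 72 h. Its 24 h libraries were the lowest and its level was higher again at 48 h and 72 h, with no overlap between groups. ERN1 was the 1 gene of the set called lower, at -1.44 ± 0.10 (edgeR adjusted p = 4.43e-11) at 24 h, and was at -0.52 ± 0.10 (adjusted p = 5.04e-05) at 48 h and -0.24 ± 0.09 (adjusted p = 0.0254) at 72 h. XBP1 (ENSG00000100219.15), the mRNA that IRE1 splices, measured 50.6, 54.1 and 54.9 CPM without Dox, 97.4, 92.3 and 94.0 at 24 h, 160, 146 and 152 at 48 h and 120, 110 and 114 at 72 h. Its groups did not overlap, and its highest level was at 48 h.

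The log2 fold changes of XBP1 were 0.83 ± 0.06 (edgeR adjusted p = 1.91e-11), 1.52 ± 0.06 (adjusted p = 6.55e-16) and 1.11 ± 0.06 (adjusted p = 1.82e-13). The values are for the whole gene, and splicing of XBP1 was not analysed here. ATF6 was at -0.09 and -0.06 at 24 h and 48 h (edgeR adjusted p = 0.182 and 0.4) and rose by 0.18 at 72 h (adjusted p = 0.0134). EIF2AK3, which encodes PERK, was at -0.15 at 24 h (edgeR adjusted p = 0.145) and rose by 0.25 at 48 h and 0.49 at 72 h. With effective lengths in the fit, EIF2AK3 was at 0.34 and 0.76 at these 2 times.

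PPIB, a prolyl isomerase that acts on collagen and other secreted proteins, and the translocon subunits SEC61A1 and SEC61B, which form the channel for new chains, rose at each time by less than 2-fold. PPIB was at 0.69, 0.52 and 0.58 and had the highest level per length of the set without Dox, at 424 ± 8.2 TPM. SEC61B was at 0.75, 0.61 and 0.49, and SEC61A1 at 0.55, 0.32 and 0.13. The levels of the 35 genes per length spanned 3.53 to 424 TPM without Dox. HSP90B1 followed PPIB at 406 ± 7.99 TPM, and in Dox the order near the top changed: CALR was the fifth of the 35 without Dox, at 214 ± 2.49 TPM, and the second at 24 h, at 674 ± 12.7 TPM. At 72 h HSP90B1, at 675 ± 24.0 TPM, and PPIB, at 667 ± 21.4 TPM, did not differ beyond their spread.

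**Figure D3:**
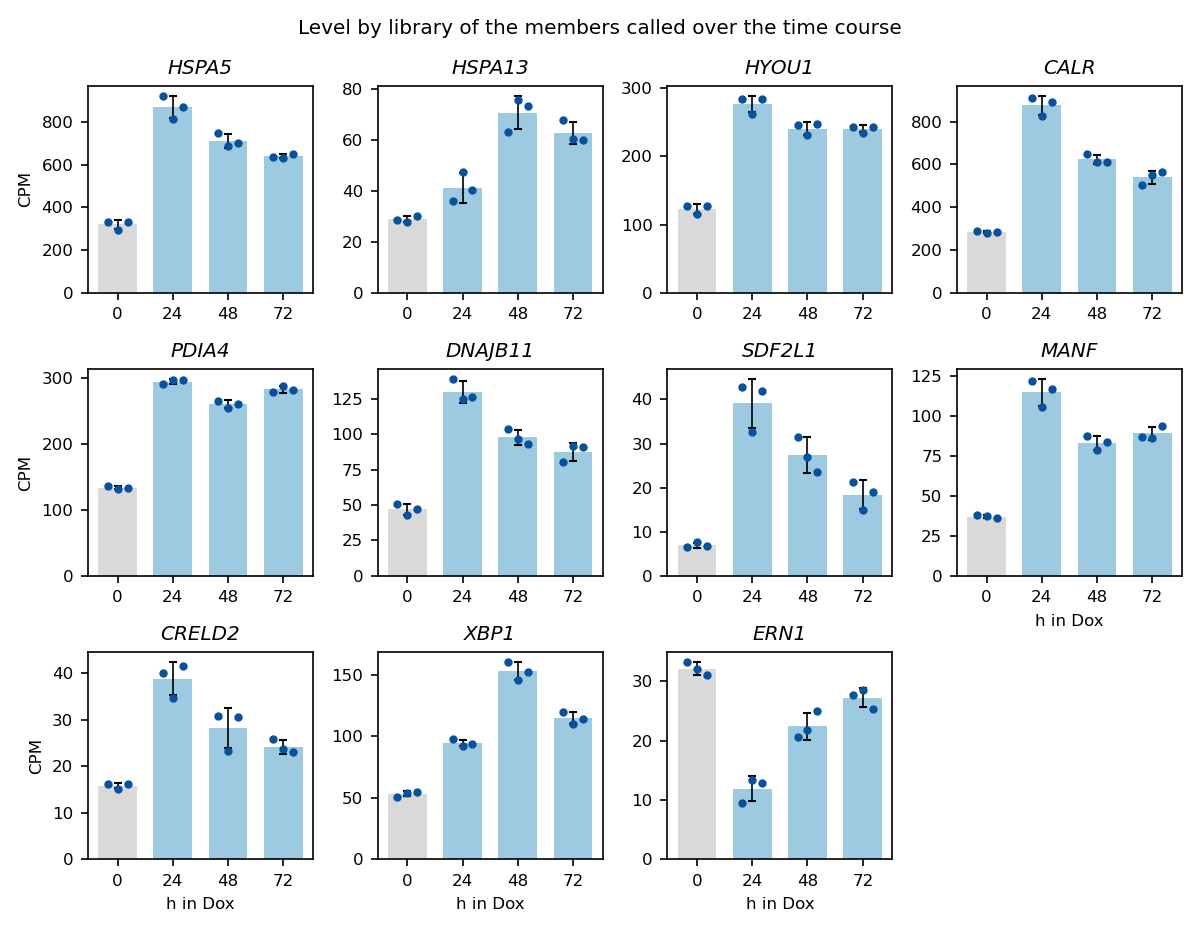
The level in CPM (vertical axis, from 0) of the 11 genes called at any time, by hours in Dox, where 0 stands for No Dox. Bars are means, error bars are SD and points are the 3 libraries. In the ERN1 panel the 24 h libraries lie at 9.5 to 13.3 CPM, below all others, and in the XBP1 panel the 48 h libraries lie highest, at 146 to 160 CPM.

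The times in Dox were then compared with each other, in the same fit over all 12 libraries. By mean CPM, 18 of the 35 genes were highest at 24 h, 4 at 48 h (HSPA13, ERP29, HERPUD1 and XBP1), 10 at 72 h and 3 without Dox (SYVN1, EDEM1 and ERN1). The same count over all genes was not made, and a highest mean is not a tested difference. CANX, PDIA6 and ERO1B neither rose nor fell between any times in Dox. From 24 h to 48 h, 13 genes fell and 7 rose, against 18.3% of all genes in each direction, and none was called by edgeR or DESeq2, against 1.44% of all genes called lower and 3.08% called higher. At an unadjusted p under 0.05 the counts were 17 lower and 8 higher. The 13 that fell (37.1%) included HSPA5, HYOU1, CALR, PDIA4, DNAJB11, SDF2L1, MANF and CRELD2, and the 7 that rose (20%) were HSPA13, ERP29, HERPUD1, EDEM1, XBP1, ERN1 and EIF2AK3. The share that rose was near the background.

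From 48 h to 72 h, 9 genes fell (25.7%) and 8 rose (22.9%), shares near the 20.1% and 18.6% of all genes. None was called by edgeR or DESeq2, against 0.938% of all genes called lower and 2.3% called higher, and 14 were lower and 12 higher at an unadjusted p under 0.05. Between 24 h and 72 h, 14 fell (40%) and 16 rose (45.7%), against 30.2% and 30.5% of all genes. SDF2L1 was called lower, at -1.07 ± 0.12 (edgeR adjusted p = 1.43e-07), and ERN1 was called higher, at 1.2 ± 0.10 (adjusted p = 3.68e-09), beside 3.99% and 8.28% of all genes called. The ERN1 call was lost in limma-trend on log2 TPM values, at 0.87, and in a test against the 2-fold limit. The SDF2L1 call was lost without Dox 24 h replicate 1, at just short of 2-fold, and without Dox 72 h replicate 2, at -0.96. Without Dox 24 h replicate 2, ERN1 was also called between 24 h and 48 h, at 1.02 in place of 0.92.

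The 14 genes lower at 72 h than at 24 h were HSPA5, HYOU1, CALR, PDIA3, ERO1A, DNAJB11, DNAJC3, SDF2L1, MANF, CRELD2, DERL1, DERL2, SEC61B and SEC61A1. The 16 genes higher at 72 h than at 24 h were HSP90B1, HSPA13, PDIA5, P4HB, ERP29, ERP44, DNAJB9, DNAJC10, SEL1L, HERPUD1, SYVN1, EDEM1, XBP1, ATF6, ERN1 and EIF2AK3. The log2 difference between 72 h and 24 h among the 14 was largest for SDF2L1, at -1.07, CALR, at -0.70, and CRELD2, at -0.68.

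**Figure D4:**
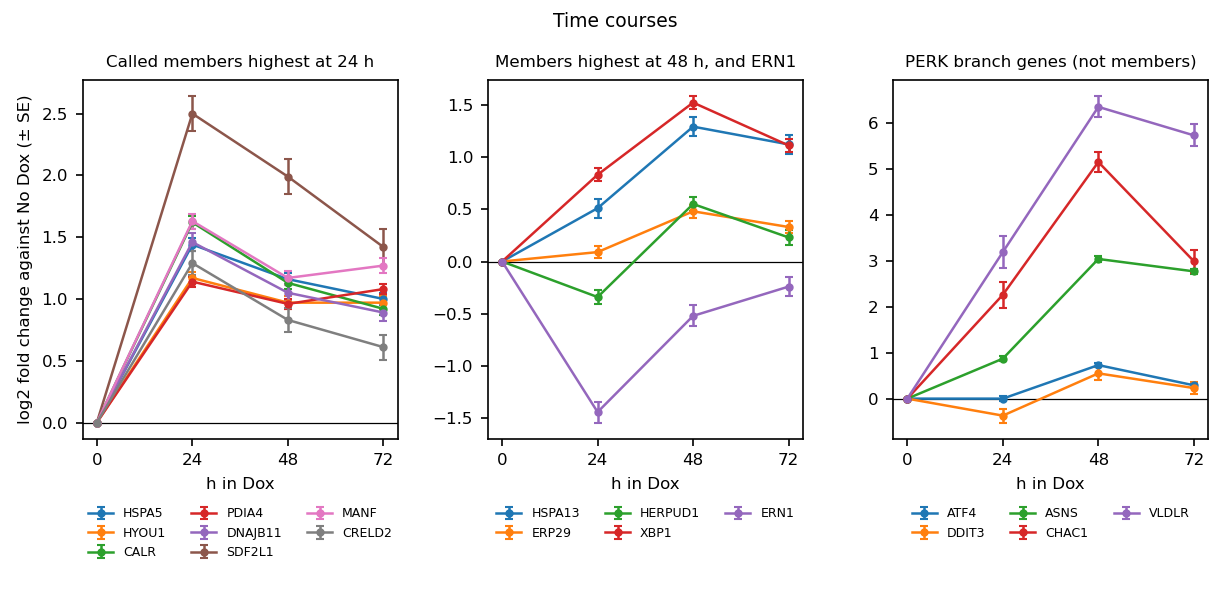
The log2 fold change against No Dox (vertical axis, ± SE, its range differing between panels) by hours in Dox for called genes highest at 24 h, for the 4 genes highest at 48 h with ERN1, and for 5 genes of the PERK branch outside the set. The 8 genes of the left panel lie at 1.14 to 2.50 at 24 h, XBP1 rises to 1.52 at 48 h and ERN1 falls to -1.44 at 24 h, and VLDLR, CHAC1 and ASNS reach 6.35, 5.15 and 3.04 at 48 h.

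Genes of the same pathways outside the set were then counted, in 12 lists of ER and folding genes. Of all genes tested, 12%, 10.6% and 10.2% were called higher at 24, 48 and 72 h and 17.7%, 14.4% and 12.3% lower, and each list's counts stand beside these shares. In the PERK branch and integrated stress response, 3 of 20 genes were called higher and 3 lower at 24 h, 7 and 0 at 48 h and 4 and 0 at 72 h, with medians of 0.04, 0.60 and 0.35. Asparagine synthetase (ASNS), a target of ATF4, was at 24.2 ± 0.0919 CPM without Dox and rose by 0.87, 3.04 and 2.77 on the log2 scale. CHAC1, a glutathione-degrading enzyme, went from 0.539 ± 0.141 to 2.71 ± 0.811, 19.9 ± 1.42 and 4.38 ± 0.635 CPM, and VLDLR, a lipoprotein receptor, from 0.194 ± 0.0833 to 1.81 ± 0.324, 16.1 ± 2.04 and 10.4 ± 0.438 CPM. All 3 were highest at 48 h. ATF4 and DDIT3, picked for their place in the pathway after their values were seen, were at 0.00 and -0.37 at 24 h, 0.73 and 0.55 at 48 h and 0.29 and 0.23 at 72 h.

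Among 15 tested genes of the sensors and their processing, 1, 2 and 1 were called higher at 24, 48 and 72 h and 1 lower at each time. CREB3L2, a membrane-bound transcription factor of the same kind as ATF6, rose from 29.4 ± 1.36 CPM to 101 ± 8.47, 118 ± 9.05 and 169 ± 12.1 CPM, and MAP3K5, a stress kinase, fell from 47.2 ± 1.84 to 16.6 ± 2.23, 16.8 ± 1.46 and 19.2 ± 1.55 CPM. Among 26 further degradation genes, 2, 1 and 2 were called higher and 0 lower, with medians of 0.05, 0.08 and -0.04, so that the share called higher was below that of all genes. VCP, the ATPase that extracts proteins from the membrane, rose from 264 ± 2.43 to 645 ± 8.24, 468 ± 16.9 and 373 ± 4.19 CPM.

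The lists of ER entry and of export had medians above 0 at each time, as did most of the other lists. Among these were the sensor list, at 0.48, 0.34 and 0.20, and the ER membrane protein complex, at 0.45, 0.40 and 0.33. Only the lists of further degradation genes, ER calcium handling and ER-phagy had a median below 0 at any time. Of 22 translocon, signal recognition and signal peptidase genes, 6, 5 and 5 were called higher, with medians of 0.48, 0.37 and 0.44. SSR3, a subunit of the translocon-associated complex, rose from 134 ± 4.25 to 419 ± 22.1, 362 ± 12.7 and 356 ± 14.6 CPM. Of 23 genes of COPII export and KDEL retrieval, 4, 2 and 5 were called higher, with medians of 0.46, 0.41 and 0.63. KDELR3, a receptor that returns escaped ER proteins, rose from 1.81 ± 0.465 to 10.3 ± 0.199, 18.9 ± 1.24 and 33.8 ± 2.81 CPM, and the COPII coat gene SEC24D from 19.6 ± 0.99 to 40.5 ± 2.02, 46.9 ± 2.31 and 94.7 ± 6.08 CPM. KDELR3 and SEC24D were highest at 72 h, unlike HSPA5 and CALR. PREB, of the same list, went from 30.0 ± 3.11 to 68.9 ± 4.51, 54.5 ± 1.66 and 52.5 ± 1.19 CPM. PREB was thus highest at 24 h. By mean CPM, 18 genes of the set were highest at 24 h and 10, among them HSP90B1 and P4HB, at 72 h. A difference in timing between the export list and the set was not tested.

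Of 30 genes of N-glycosylation and the calnexin cycle, 1, 0 and 1 were called higher, with UAP1, which makes a sugar donor, at 162 ± 1.51 CPM without Dox and 503 ± 17.6 CPM at 24 h. Without the fold threshold, 19 rose and 1 fell at 24 h, 18 rose and 4 fell at 48 h and 15 rose and 5 fell at 72 h. Of 17 further thiol oxidoreductases, 2 were called higher and 1 lower at each time, among them GPX8, at 1.30, 1.71 and 1.59, and TXNDC5, at 1.02, 1.18 and 1.25. Of 22 further co-chaperones and prolyl isomerases, 2, 3 and 3 were called higher, and SERPINH1, the collagen chaperone, went from 88.9 ± 4.71 to 225 ± 18.2, 206 ± 14.3 and 220 ± 13.0 CPM. The ER membrane protein complex had 2, 1 and 1 of 10 genes called higher, with EMC9 at 1.06, 1.17 and 1.26.

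ER calcium handling had 2 called higher and 1 lower of 16 at each time, with NUCB2 at 1.23, 1.22 and 1.69 and the calcium channel ITPR3 at -1.21, -1.48 and -1.34. The receptors of ER-phagy and shaping proteins, 14 genes, had 1 gene called higher at each time and 2, 1 and 1 called lower, with medians of -0.09, -0.19 and -0.16. RRBP1, a ribosome-binding protein of the ER, was called higher, at 1.01, 1.23 and 1.43, and CALCOCO1, an ER-phagy receptor, was at 146 ± 3.54 CPM without Dox and at log2 fold changes of -2.66, -2.49 and -1.73. The cytosolic and mitochondrial chaperones, which fold proteins outside the ER, had the highest median of the 12 lists at 24 h. Of these 26 genes, 11, 4 and 2 were called higher, with medians of 0.93, 0.72 and 0.57. HSP90AA1, the inducible cytosolic HSP90, rose from 871 ± 8.07 to 5383 ± 142, 5585 ± 117 and 5876 ± 295 CPM, and HSPH1, a cytosolic exchange factor, from 118 ± 5.86 to 368 ± 10.6, 231 ± 11.4 and 174 ± 5.47 CPM.

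**Figure D5:**
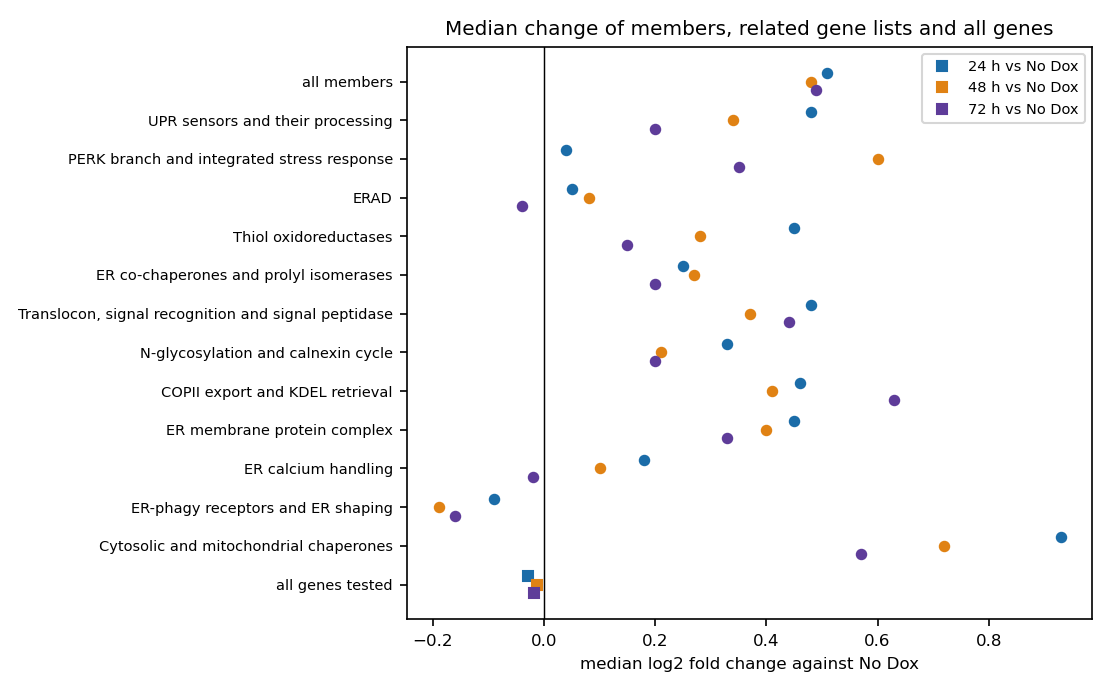
The median log2 fold change against No Dox (horizontal axis) of the 35 genes, of 12 lists of related genes outside the set and of all genes tested (squares), at 24, 48 and 72 h. The 35 genes lie at 0.51, 0.48 and 0.49, the cytosolic and mitochondrial chaperones at 0.93, 0.72 and 0.57 and all genes close to 0.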

How the data were processed

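Gene expression was measured by RNA-seq in 12 libraries of MCF10A cells. The authors aligned the reads with STAR to GRCh38 and quantified genes of GENCODE 22 with RSEM, and the deposited tables hold an expected count, a TPM and an FPKM value per gene for each library. The deposited expected counts are not normalized between libraries, whereas the authors' TPM and FPKM values are scaled by effective length and library size, and the FPKM values were not used. Symbols came from GENCODE 44 by stable gene ID, for 56321 of 60483 rows.

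Expected counts were rounded, filtered with filterByExpr, scaled by TMM and fitted over all 12 libraries with the quasi-likelihood test of edgeR 4.0.16 in R 4.3.3, with Benjamini-Hochberg adjustment over 14822 genes. A gene was called at an adjusted p under 0.05 and a 2-fold change. CPM values are expected counts per effective library size. Libraries held 15382564 to 26570132 expected counts and the 35 genes 121 to 34550 each. All 35 genes are given, with values per library for those called at any time, and examples from each related list were taken from the up to 3 called genes with the largest absolute log2 fold change and at least 5 CPM in the higher group. The genes, lists and tests were chosen with earlier results of these data known. DESeq2 1.42.0, limma 3.58.1 and other settings served as alternatives, and the scripts were tested on simulated counts. Promoter windows came from RefSeq. Replicate numbers were not used as pairs, since the sources used here do not say that equal numbers share a culture.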

Additional observations from a re-analysis of the deposited data

Results flagged for a closer look

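Between times in Dox, 2 genes had changes against No Dox that passed the test in opposite directions and also differed from each other, and another 2 differed by over 2-fold. HERPUD1 was below No Dox at 24 h and above it later, and was higher by 0.88 at 48 h than at 24 h (log2, edgeR adjusted p = 4.02e-09) and by 0.57 at 72 h than at 24 h (edgeR adjusted p = 8.47e-07). DNAJC3 was above No Dox at 24 h and 48 h and slightly below it at 72 h, at -0.13 on the log2 scale (edgeR adjusted p = 0.0483). That 72 h value lay close to the limit of the test and ran from -0.16 to -0.05 over the alternatives. The log2 differences of DNAJC3 were -0.42 from 24 h to 72 h (edgeR adjusted p = 1.69e-06) and -0.29 from 48 h to 72 h (edgeR adjusted p = 0.000395). SDF2L1 stayed above No Dox and differed by -1.07 between 72 h and 24 h (edgeR adjusted p = 1.43e-07), and ERN1 stayed below it and differed by 1.2 (edgeR adjusted p = 3.68e-09). The times share their No Dox libraries, and what underlies these differences was not tested.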

How the results depend on the processing

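Under 25 alternatives, 5056 of 5250 log2 values of the 35 genes kept their direction and side of the threshold, 21 lost it, 141 gained it and 32 changed sign. Most of the 141 came from the alternative without a fold threshold, under which any adjusted p under 0.05 passes by construction. The other gains were for HYOU1, PDIA4, ERN1 and EIF2AK3. Of the 32, the values for DERL1 between 72 h and 48 h, at -0.16 in edgeR, were 0.02 in DESeq2 with effective lengths, 0.01 in edgeR with effective lengths and 0.03 in limma-trend on log2(TPM + 1). The other sign changes were of values whose adjusted p missed 0.05. With effective lengths in DESeq2 and edgeR, ERP29 at 24 h was at -0.07 in both, ERO1A between 48 h and 24 h at 0.05 and 0.06, SYVN1 between 48 h and 24 h at -0.03 and -0.01, and DNAJC10 between 48 h and 24 h at -0.02 in DESeq2. In limma-trend, ATF6 at 48 h was at 0.01, SYVN1 at 72 h at 0.05, ERP29 at 24 h at -0.02, CANX between 72 h and 24 h at 0.03, and ERO1A and P4HB between 48 h and 24 h at 0.09 and 0.01. With upper-quartile factors CANX was at 0.01 between 72 h and 24 h and ERO1B at -0.02 at 24 h, and among protein-coding nuclear genes ERO1B was at -0.01. Leaving out 1 library gave ranges across 0 for ERO1B at 24 h (-0.08 to 0.17), at 72 h (-0.07 to 0.19) and between 72 h and 24 h (-0.04 to 0.07), for CANX between 72 h and 24 h (-0.04 to 0.02), for DNAJC10 (-0.02 to 0.09), ERO1A (-0.05 to 0.01) and ERP44 (-0.05 to 0.07) between 48 h and 24 h, and for EDEM1 (-0.01 to 0.09) and PDIA3 (-0.01 to 0.09) between 72 h and 48 h. Without a fold threshold, the counts of genes higher and lower were 25 and 6 at 24 h, 28 and 3 at 48 h, 27 and 2 at 72 h, 7 and 13 between 48 h and 24 h, 8 and 9 between 72 h and 48 h and 16 and 14 between 72 h and 24 h, and 34 over the time course. Between 72 h and 24 h, both fits with effective lengths called 2 genes higher (ERN1 and EIF2AK3), limma-trend called 0 higher, and glmTreat, which tests against the 2-fold limit, called 0 higher and 0 lower and left 2 genes higher at 72 h. Leaving out 1 library gave 7 to 8 genes higher at 48 h, 5 to 7 at 72 h, 0 to 1 higher between 48 h and 24 h (1 without Dox 24 h replicate 2) and 0 to 1 lower between 72 h and 24 h (0 without Dox 24 h replicate 1 or Dox 72 h replicate 2). HSPA5 at 72 h lost its call in 8 alternatives and DNAJB11 at 48 h in 5, each count including glmTreat, where the fold itself did not move, and the cause was not tested.

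With the replicate number as a replicate block, 8 genes were called higher and 1 lower at 24 h, 7 and 0 at 48 h, 6 and 0 at 72 h and 11 over the time course, as without it. Of 18 same-numbered pairs, 3 had deviations correlated over 0.1 (r from -0.218 to 0.364), and differently numbered pairs ran from -0.415 to 0.284. Deviations from a mean of 3 libraries are tied to one another, so these values cannot tell whether equal numbers share a culture. No time-course value was computed for glmTreat, limma-trend or the fits of 2 groups. The fit limited to protein-coding nuclear genes without histones was chosen after seeing the data. At 3 libraries per group, genes near the 2-fold limit cannot be placed firmly on either side.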
